A study of Macaca mulatta with 2 samples.

Results

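The calcium/calmodulin-dependent kinases and calcineurin were examined as 10 genes of the macaque prefrontal cortex read count table, chosen by symbol from the 33618 genes listed. The members were the 4 CaMKII subunit genes CAMK2A, CAMK2B, CAMK2D and CAMK2G, the CaM kinase kinase genes CAMKK1 and CAMKK2, the CaM kinase IV gene CAMK4, and the calcineurin subunit genes PPP3CA, PPP3CB and PPP3R1. All 10 were found in the table, and all 10 passed the filter of at least 1 CPM, reads scaled to a common library size, in either library. The table held 1 library from a control infant rhesus macaque and 1 library from an infant rhesus macaque anesthetized with sevoflurane, an inhaled anesthetic. By the labels, both animals were 28 days old at sampling. The exposures, described in the same words for both samples although only 1 is titled as sevoflurane, used 2.5 to 3% sevoflurane for 4 h each at about postnatal days 7, 14 and 28. The study's results section gives the same days as the labels, while its methods give later days for the exposures after the first. The methods also describe intubation and 100% oxygen for the sevoflurane animals, and state that cortex was taken directly after the last exposure. By the methods' days, sampling would thus have been later than the age in the labels. The handling of the control animal was not given in the sources used here. The study's design names 3 animals per group, and the other animals were not analysed here. Every difference below therefore compares 2 libraries of 1 animal each, with no replicate check and no p-value.

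Calcium that enters a neuron binds calmodulin, and calcium-loaded calmodulin switches on kinases and a phosphatase with opposing actions. CaMKII is a multisubunit kinase of the synapse that phosphorylates itself and can stay active after calcium has fallen, and it is known for its part in synaptic plasticity in the forebrain. The CaM kinase kinases activate CaM kinase IV, a nuclear kinase that phosphorylates the transcription factor CREB. Calcineurin is a phosphatase built of a catalytic and a calcium-binding regulatory subunit, and it releases NFAT factors and CREB coactivators to the nucleus by removing phosphate from them.

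The control library held 16960880 reads and the sevoflurane library 9839105, a depth ratio of 1.72, and 3 reads corresponded to 0.179 CPM and 0.302 CPM. The libraries also differed in the reads on 7 Y-linked genes, with 3 in control cortex and 4308 in the sevoflurane library. By these reads the control library came from a female and the sevoflurane library from a male, which the labels do not state. The study's methods list females alone in the control group and animals of either sex in the sevoflurane group, and animal, exposure and sex cannot be told apart in these libraries. Both libraries held reads on neuronal markers, which do not by themselves establish the cortical region or matched dissections. SNAP25, a presynaptic membrane protein gene, had 21120 control and 12658 sevoflurane reads and SLC17A7, the vesicular glutamate transporter gene of cortical excitatory neurons, had 16767 and 9073. Many cell type markers differed between the libraries, in most lists not all in the same direction. The 6 oligodendrocyte markers had a median log2 ratio of sevoflurane over control of -1.17, the 7 astrocyte markers -0.49, the 9 pan-neuron markers -0.36, the 8 interneuron markers -0.21, the 4 endothelial markers 0.06, the 8 excitatory neuron markers 0.24 and the 6 microglia markers 0.25. In bulk tissue, fewer cells of a type and less RNA per cell cannot be told apart.

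Together the 10 members took 80634 reads in control cortex and 54087 in the sevoflurane library, or 4798 and 5446 CPM after scaling by edgeR's TMM method. The members did not move together. PPP3CA and CAMK2A were higher in the sevoflurane library, CAMK2D was at 47.9% of its control CPM, and the other 7 members lay between log2 ratios of -0.30 and 0.21. Where the only criterion was a 95% counting interval clear of equal expression, 5 members were higher and 4 lower, a total of 9 of 10. By that criterion, 56.5% of the 18050 tested genes differed (28.4% higher and 28.1% lower), and the share was 79.1% (34.8% higher and 44.3% lower) among the 3492 genes with at least as many reads in both libraries together as CAMK2B, the member with the fewest (1918 reads, a limit set after values were seen). Most well-covered genes thus also passed it.

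At a difference of at least 2-fold with an interval excluding equal expression, 1 of the 10 members was lower and 0 were higher. In that comparison 5.47% of all tested genes were lower and 7.56% higher. Among the 3492 well-covered genes these shares were 1.92% and 1.23%. At 1.5-fold the members' counts were again 1 lower and 0 higher, against 11.9% and 14.4% of all tested genes and 8.28% and 5.96% of the well-covered ones. The median log2 ratio over the members was 0.05, beside -0.0048 over all tested genes.

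**Figure D1:**
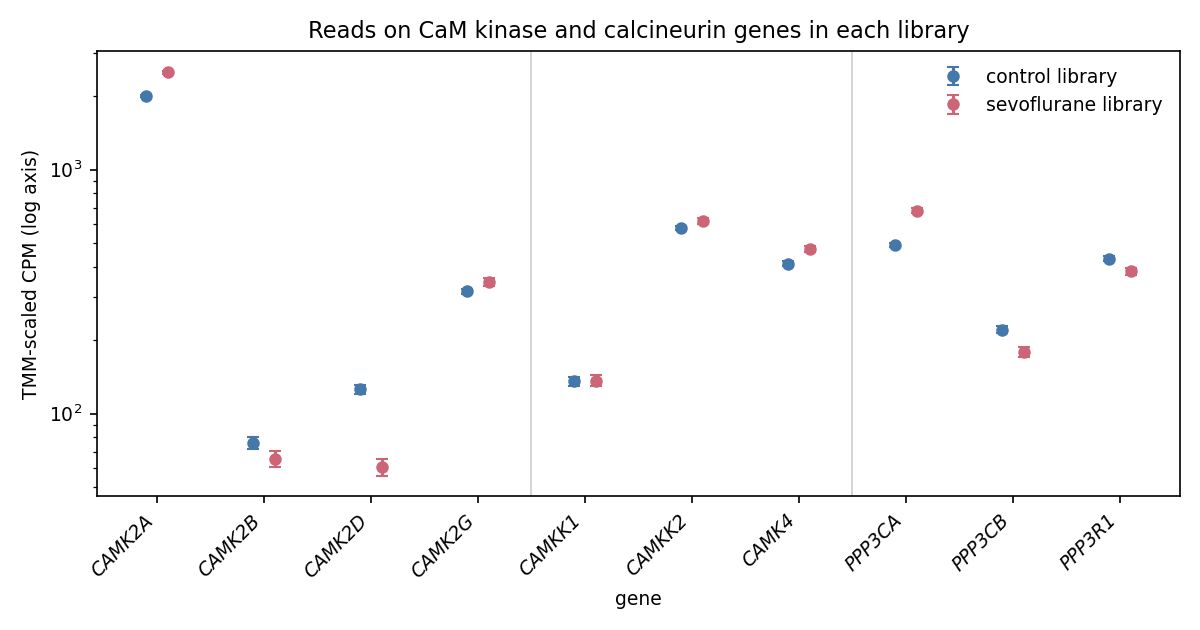
TMM-scaled CPM of each member (log axis) in the control library (blue) and the sevoflurane library (red), 1 library each, with exact 95% Poisson intervals that cover counting error only. CAMK2D shows the widest gap, at 126 CPM against 60.2 CPM in the sevoflurane library, and PPP3CA was higher at 678 than at 492 CPM. Heights of different genes are not comparable, since CPM is not corrected for transcript length.

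CAMK2A encodes the alpha subunit of CaMKII, the main subunit in excitatory neurons of the forebrain. It had 33794 reads in control cortex and 24891 in the sevoflurane library, or 2011 CPM (95% interval 1990 to 2033) and 2506 CPM (2475 to 2538). Its log2 ratio was 0.32 (95% interval 0.29 to 0.34), so its CPM in the sevoflurane library was 125% of the control CPM. The direction was the same under every scaling tried, although the size was not, as the ratio was 0.07 relative to the excitatory neuron markers and 0.68 relative to the pan-neuron markers. Of all tested genes, 54.2% had a log2 ratio at least as far from 0.

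CAMK2B encodes the beta subunit, which binds actin filaments and helps anchor the kinase in dendritic spines. It had 1271 control and 647 sevoflurane reads, or 75.6 CPM and 65.2 CPM. The log2 ratio was -0.21 (-0.35 to -0.08), and it was 0.15 when the pan-neuron markers were the reference, so its direction depended on the scaling. In the RefSeq gene table of the macaque telomere-to-telomere assembly MMU8v2.0, CAMK2B overlaps OGDH, an enzyme gene of the citric acid cycle with 2665 and 1637 reads (log2 ratio 0.06, -0.03 to 0.15). Whether reads were counted by strand was not given in the sources used here, so reads in the overlap could not be assigned with certainty. In the same table PPP3CB overlaps LOC107000156, which had 0 reads in either library. CAMKK1 and CAMKK2 each overlap 1 gene whose symbol was not among the genes counted, so no reads can be given for it.

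CAMK2D encodes the delta subunit, a form found in many tissues and well known from heart muscle. It had 2112 reads in control cortex and 598 in the sevoflurane library, or 126 CPM (120 to 131) and 60.2 CPM (55.5 to 65.2). The log2 ratio was -1.06 (-1.19 to -0.93), the lowest of the members and the one beyond 2-fold. By ratio, CAMK2D stood at place 931 from the bottom among 18050 genes tested, and 52 of the 3491 other well-covered genes had a ratio as low. It was lower under all scalings, at -1.30 relative to the excitatory neuron and -0.70 relative to the pan-neuron markers. The 2-fold call itself was not kept with the pan-neuron markers as reference.

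Oligodendrocyte and most astrocyte markers were lower as well. The summed level of the oligodendrocyte markers was 4056 CPM in control cortex and 1994 CPM in the sevoflurane library, with all 6 of 6 lower beyond counting error and none at 0. That of the astrocyte markers was 6105 CPM and 4245 CPM, with 5 of 7 lower and 2 of 7 higher. The part of these cell types in the CAMK2D difference was not tested.

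CAMK2G encodes the gamma subunit, also broadly expressed. It had 5326 control and 3441 sevoflurane reads, or 317 CPM and 346 CPM. Its log2 ratio was 0.13 (0.07 to 0.19), and it was -0.12 with the excitatory neuron markers as reference. As a sum, the 4 CaMKII genes had 2529 CPM in control cortex and 2978 CPM in the sevoflurane library, a log2 ratio of 0.24, of which CAMK2A made up most reads.

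Shares within the family do not depend on how libraries are scaled. CAMK2A held 79.5% of CaMKII reads in the control (95% exact binomial interval 79.1 to 79.9%) and 84.2% in the sevoflurane library (83.7 to 84.6%), and these intervals did not overlap. CAMK2D held 4.97% (4.76 to 5.18%) and 2.02% (1.86 to 2.19%), a log2 odds ratio of -1.34 (-1.48 to -1.21). CAMK2B held 2.99% (2.83 to 3.16%) and 2.19% (2.02 to 2.36%), and CAMK2G 12.5% and 11.6%, a log2 odds ratio of -0.12 (-0.19 to -0.06). Relative to the rest of the family, CAMK2A was thus higher and the other 3 subunits lower in the sevoflurane library. A higher share of CAMK2A lowers the other shares by construction, and CAMK2G by its own log2 ratio was higher (0.13). Expressed between subunits, there were 26.6 CAMK2A reads for each CAMK2B read in control cortex and 38.5 in the sevoflurane library, and 16.0 and 41.6 for each CAMK2D read.

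**Figure D2:**
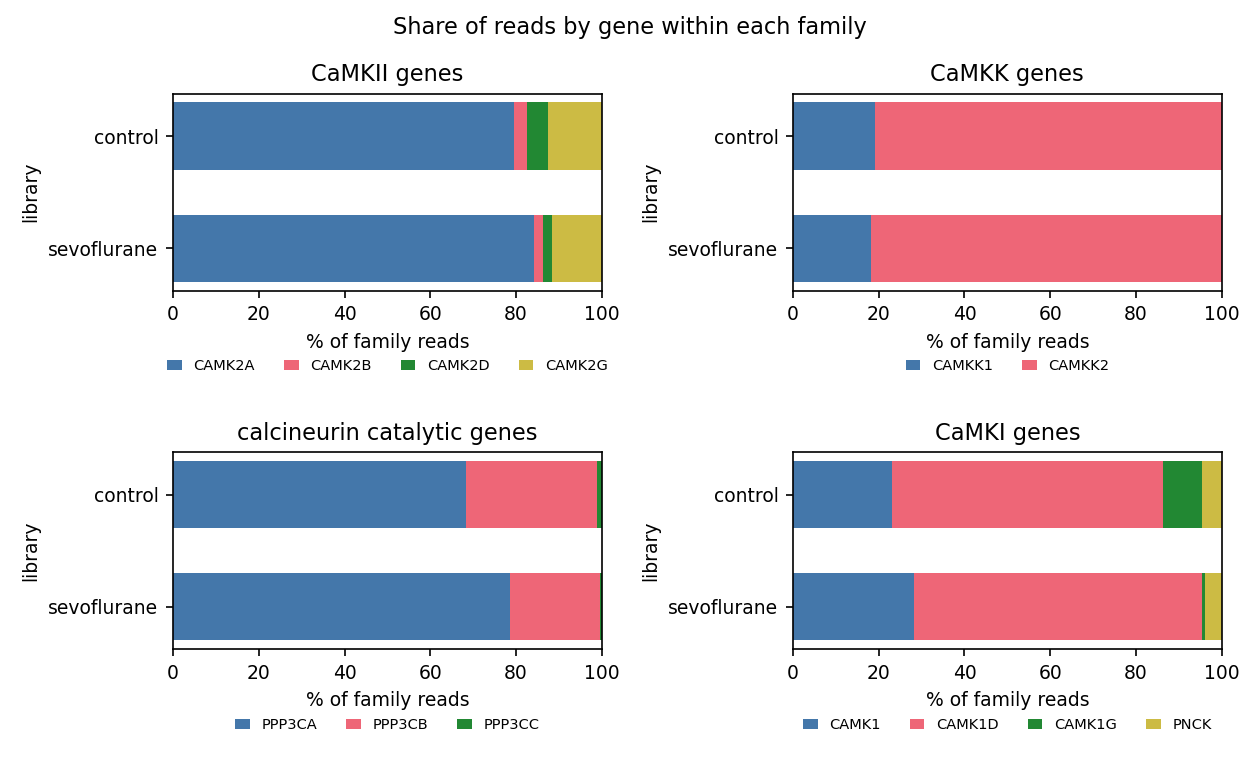
Percent of the reads of each gene family taken by each gene in the control and the sevoflurane library (horizontal stacked bars, 1 library each, summing to 100%). Control and sevoflurane shares were 4.97 and 2.02% for CAMK2D, 68.3 and 78.6% for PPP3CA, and 9.11 and 0.694% for CAMK1G. Shares reflect transcript length as well as transcript number, so they are comparable between libraries and not between genes.

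The 3 genes of the kinase cascade that leads to CREB lay between log2 ratios of 0.01 and 0.21 with TMM scaling. CAMKK1 encodes CaM kinase kinase alpha, and it had 2285 reads in control cortex and 1358 in the sevoflurane library, or 136 CPM (130 to 142) and 137 CPM (130 to 144). Its log2 ratio of 0.01 (-0.09 to 0.11) was the only one of the 10 whose interval included equal expression, and the limits allow a difference of about 0.1 on the log2 scale either way. CAMKK2 encodes the beta form, which also activates the energy sensor AMPK. It had 9717 and 6117 reads, or 578 CPM and 616 CPM, and a log2 ratio of 0.09 (0.04 to 0.14).

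CAMK4 encodes CaM kinase IV, the nuclear kinase that these enzymes activate. It had 6917 control and 4718 sevoflurane reads, or 412 CPM and 475 CPM, with a log2 ratio of 0.21 (0.15 to 0.26). The directions of CAMKK2 and CAMK4 did not hold with the excitatory neuron markers as reference, which gave -0.15 and -0.04. With the pan-neuron markers as reference the log2 ratios were 0.37 for CAMKK1, 0.46 for CAMKK2 and 0.57 for CAMK4. Of the reads on the CaM kinase kinase genes, CAMKK2 held 81.0% in the control (80.2 to 81.7%) and 81.8% in the sevoflurane library (80.9 to 82.7%). The log2 odds ratio of 0.08 (-0.03 to 0.19) included equal shares.

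Among the calcineurin genes the 2 catalytic subunits of the members differed from each other. PPP3CA encodes the alpha catalytic subunit, an abundant calcineurin A form in brain. It had 8261 reads in control cortex and 6729 in the sevoflurane library, or 492 CPM (481 to 502) and 678 CPM (661 to 694). Its log2 ratio was 0.46 (0.42 to 0.51), the highest of the 10 members, and its CPM in the sevoflurane library was 138% of the control. PPP3CA was higher under all scalings tried, by 0.22 relative to the excitatory neuron and 0.83 relative to the pan-neuron markers. Of the other 3491 well-covered genes, 318 had a ratio as high.

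PPP3CB encodes the beta catalytic subunit. It had 3706 control and 1781 sevoflurane reads, or 221 CPM (213 to 228) and 179 CPM (171 to 188), and its log2 ratio was -0.30 (-0.38 to -0.22). PPP3R1 encodes the regulatory B subunit that both catalytic forms need. It had 7245 and 3807 reads, or 431 CPM and 383 CPM, with a log2 ratio of -0.17 (-0.23 to -0.11). For PPP3CB and PPP3R1 the direction depended on the scaling, since the pan-neuron markers as reference gave 0.07 and 0.19.

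The shift between catalytic subunits was independent of scaling. PPP3CA held 68.3% of the catalytic subunit reads in the control (67.5 to 69.1%) and 78.6% in the sevoflurane library (77.8 to 79.5%), a log2 odds ratio of 0.77 (0.68 to 0.87). PPP3CB held 30.6% and 20.8%, a log2 odds ratio of -0.75 (-0.84 to -0.66). The gamma form PPP3CC, not a member and the least covered of the 3, held 1.03% and 0.549%. There were 2.23 PPP3CA reads for each PPP3CB read in control cortex and 3.78 in the sevoflurane library. Against the regulatory subunit the corresponding values were 1.14 and 1.77 PPP3CA reads for each PPP3R1 read, a log2 change of 0.63 (0.56 to 0.71). As a sum, the 3 calcineurin members had 1143 CPM and 1240 CPM.

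**Figure D3:**
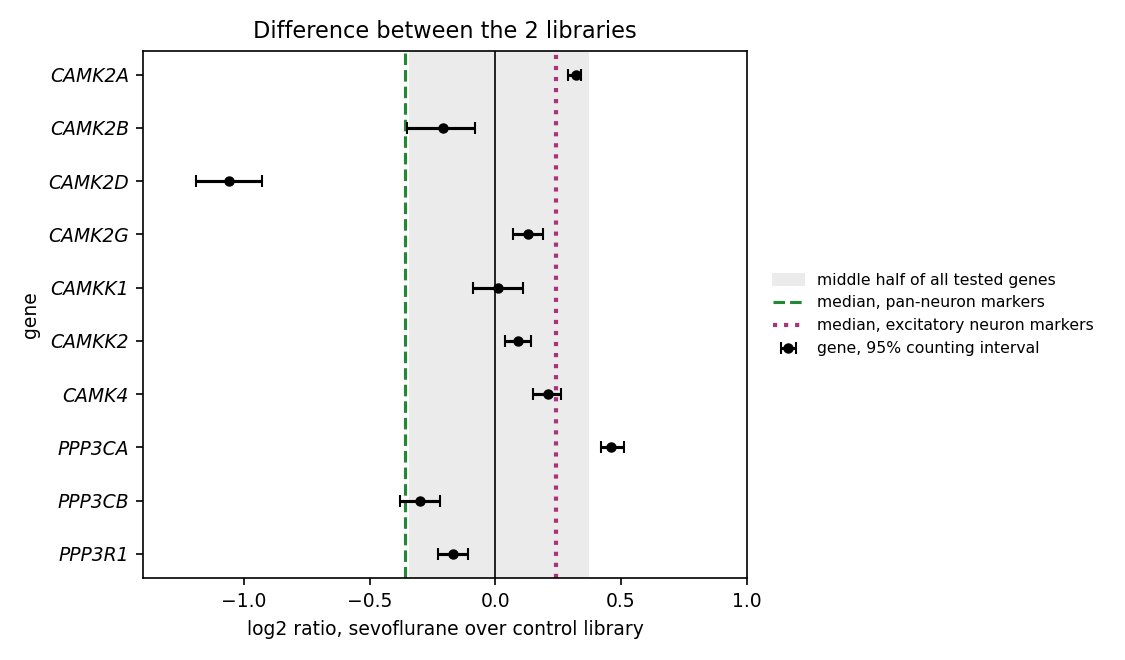
Log2 ratio of TMM-scaled CPM, sevoflurane over control library, for the 10 members (points) with 95% counting intervals (bars). Grey marks the middle 50% of all tested genes, from -0.34 to 0.37, and dashed green and dotted purple lines mark the medians of the pan-neuron (-0.36) and excitatory neuron markers (0.24). CAMK2D lies below and PPP3CA above the grey band.

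The order of the members by log2 ratio, from the highest, was PPP3CA, CAMK2A, CAMK4, CAMK2G, CAMKK2, CAMKK1, PPP3R1, CAMK2B, PPP3CB and CAMK2D. This order compares differences and not levels, and differences between members do not depend on the scaling. Of the 45 pairs, 40 had an interval of the difference that excluded 0, by counting error alone. Of the 9 neighbours in the order, 4 differed in this way. PPP3CA exceeded CAMK2A by 0.15 (0.09 to 0.20), CAMK2A exceeded CAMK4 by 0.11 (0.05 to 0.17), CAMKK1 exceeded PPP3R1 by 0.18 (0.06 to 0.29) and PPP3CB exceeded CAMK2D by 0.76 (0.61 to 0.92). The step from PPP3CB to CAMK2D was the widest. CAMK4, CAMK2G, CAMKK2 and CAMKK1 did not differ from their neighbours in that run beyond counting error, nor did PPP3R1, CAMK2B and PPP3CB. An order of levels is not given, since transcript lengths were not available for a per-length scale.

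Taking the neuron marker lists as reference would shift all log2 ratios by 0.36 (pan-neuron) or -0.24 (excitatory), so values between -0.36 and 0.24 among the pathway genes below take the other sign under 1 of these references. Calls at a fold threshold would change too. For example, NRGN and PPP1R1A would fall below 2-fold with the excitatory reference, and CAMK2N1 would pass it with the pan-neuron reference. Genes below with fewer reads than CAMK2B over both libraries are outside the well-covered set, so its shares do not apply to them. CAMK1G, PPP1R1B, PPP1R1A and BDNF are among these. CaM kinases outside the members included the gene with the widest difference of the pathway. CAMK1G encodes CaM kinase I gamma, a membrane-anchored kinase that CaM kinase kinases can activate, and it had 668 reads in control cortex and 28 in the sevoflurane library. This corresponds to 39.8 CPM (36.8 to 42.9) and 2.82 CPM (1.87 to 4.07), a log2 ratio of -3.75 (-4.42 to -3.27). By ratio it stood at place 22 from the bottom among all genes tested. The excitatory neuron markers, which range from -2.69 to 1.73 in log2 ratio, showed no common direction, with 4 of 8 lower and 4 of 8 higher, none at 0 and a summed level of 1719 CPM in control cortex and 1900 CPM in the sevoflurane library. Their part in the CAMK1G difference was not tested.

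The other CaM kinase I genes did not share the CAMK1G difference. CAMK1 had 1698 and 1134 reads (log2 ratio 0.18, 0.07 to 0.29), CAMK1D 4634 and 2714 reads (-0.01, -0.08 to 0.06) and PNCK, the beta form, 335 and 158 reads (-0.32, -0.61 to -0.05). Of the reads on these 4 genes, named and grouped as a family after values were seen, CAMK1G held 9.11% in the control (8.46 to 9.79%) and 0.694% in the sevoflurane library (0.462 to 1.00%). The log2 odds ratio was -3.84 (-4.45 to -3.29).

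In the whole list of 11 other subunits and CaM kinases, all 11 were tested and the median log2 ratio was -0.17. Beyond counting error 2 were higher and 6 lower, beside 28.4% and 28.1% of all tested genes and 34.8% and 44.3% of the well-covered ones. At 2-fold, 1 was lower, CAMK1G, and 0 were higher, beside 5.47% and 7.56% of all tested genes and 1.92% and 1.23% of the well-covered ones. PPP3CC was lower with 125 and 47 reads (log2 ratio -0.64, -1.17 to -0.16). The genes with the most reads were DCLK1, a doublecortin-like kinase of microtubules, with 20672 and 10380 reads (-0.23, -0.27 to -0.20), and CAMKV, a CaM kinase-like protein without kinase activity, with 5240 and 3209 reads (0.05, -0.01 to 0.12).

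CALM3, a calmodulin gene, had 37777 control and 22915 sevoflurane reads (log2 ratio 0.04, 0.01 to 0.06). CALM2, another calmodulin gene, was lower with 10899 and 4215 reads (-0.61, -0.66 to -0.56). How reads shared between near-identical gene copies were counted was not given in the sources used here.

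Calmodulin-binding proteins of neurons differed in both directions. NRGN encodes neurogranin, a postsynaptic protein that holds calmodulin when calcium is low, and it had 17449 reads in control cortex and 20754 in the sevoflurane library. Its log2 ratio was 1.01 (0.98 to 1.04), just past 2-fold. GAP43, a growth cone protein that binds calmodulin through a similar motif, was lower with 3275 and 1001 reads (-0.95, -1.05 to -0.85). Of the 7 calmodulin and calmodulin-binding genes considered, 6 were in the table under the listed symbol and tested, with a median log2 ratio of -0.32. Of these, 2 were higher and 4 lower beyond counting error, beside 28.4% and 28.1% of all tested genes and 34.8% and 44.3% of the well-covered ones. At 2-fold 1 was higher and 0 were lower, beside 7.56% and 5.47% of all tested genes and 1.23% and 1.92% of the well-covered ones.

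The inhibitor CAMK2N1, which binds active CaMKII and blocks it, was higher in the sevoflurane library. It had 4026 control and 4565 sevoflurane reads, or 240 CPM and 460 CPM, with a log2 ratio of 0.94 (0.88 to 1.00). Its relative CAMK2N2 was also higher, with 72 and 76 reads (0.82, 0.35 to 1.32). Relative to CAMK2A, CAMK2N1 went from 0.119 to 0.183 reads for each CAMK2A read, a log2 change of 0.62 (0.56 to 0.69), so the inhibitor gene differed by more than the kinase gene.

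For calcineurin, the feedback inhibitor gene RCAN1, named after its values were seen, had 883 and 579 reads and a log2 ratio of 0.15, with an upper limit of 0.30 and a lower limit at 0.00. The list of inhibitors, anchors and partners had 9 of 10 genes in the table, with a median log2 ratio of 0.15. Of the 9, 4 were higher and 4 lower beyond counting error, beside 28.4% and 28.1% of all tested genes and 34.8% and 44.3% of the well-covered ones. At 2-fold 0 passed in either direction, beside 7.56% and 5.47% of all tested genes and 1.23% and 1.92% of the well-covered ones. DNM1, the dynamin that calcineurin dephosphorylates in nerve terminals, had the most reads of this list, 8158 and 4332 (-0.15, -0.21 to -0.10).

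Among 7 further phosphatase genes, PPP1R1B and PPP1R1A were higher. PPP1R1B encodes DARPP-32, an inhibitor of protein phosphatase 1 that calcineurin dephosphorylates, and it had 644 and 899 reads (log2 ratio 1.24, 1.09 to 1.39). PPP1R1A, which encodes inhibitor-1, a protein of the same function, had 426 and 547 reads (1.11, 0.93 to 1.31). These were the 2 genes of the list past 2-fold, both higher, and 0 were lower. The shares were 7.56% and 5.47% of all tested genes and 1.23% and 1.92% of the well-covered ones. PPP1R1B and PPP1R1A have too few reads to be among the well-covered genes. PPP1R9B, the spine protein spinophilin, had 7904 and 6992 reads (0.58, 0.54 to 0.63). The catalytic subunit gene PPP1CB had 5335 and 2381 reads (-0.40, -0.48 to -0.34). In all, 3 of the 7 were higher and 4 lower beyond counting error, with a median log2 ratio of -0.23. The shares beyond counting error were 28.4% and 28.1% of all tested genes and 34.8% and 44.3% of the well-covered ones.

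**Figure D4:**
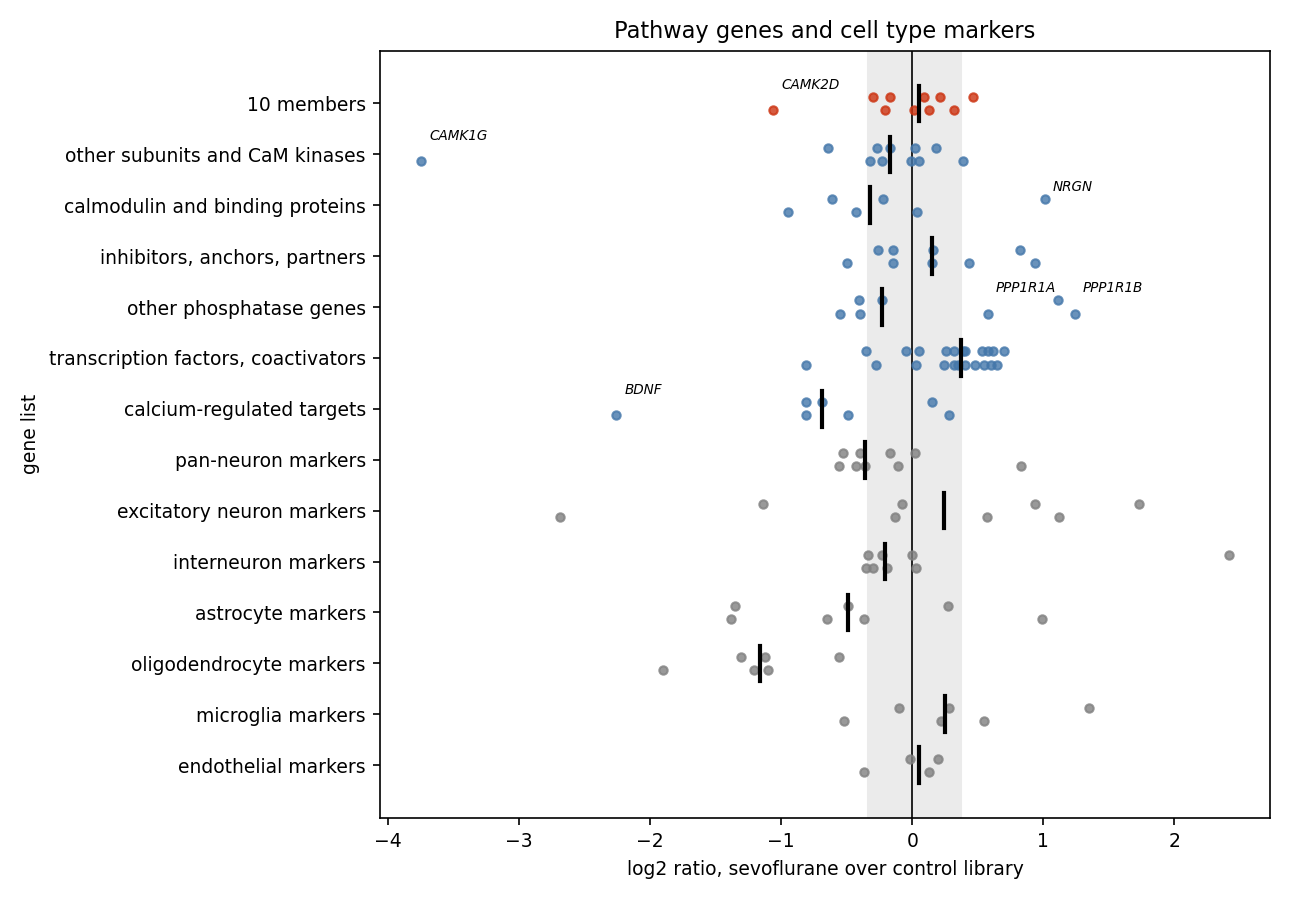
Log2 ratio, sevoflurane over control library, of each tested gene (points) in the members (red), 6 pathway lists (blue) and 7 cell type marker lists (grey points), with the list median as a black bar. Genes of the members and pathway lists past 2-fold are named, and the grey band is the middle 50% of all tested genes, from -0.34 to 0.37. The members lie within -1.06 and 0.46, CAMK1G lies far to the left at -3.75, and the transcription factors have a median of 0.37.

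Of the 24 listed transcription factors and coregulators, 22 were in the table and tested, and their median log2 ratio was 0.37. Not all of the listed genes encode known substrates of these enzymes. Beyond counting error, 13 were higher and 2 lower, beside 28.4% and 28.1% of all tested genes and 34.8% and 44.3% of the well-covered ones. None passed 2-fold (0 higher and 0 lower). The shares at 2-fold were 7.56% and 5.47% of all tested genes and 1.23% and 1.92% of the well-covered ones. At 1.5-fold 4 were higher and 1 lower, beside 14.4% and 11.9% of all tested genes and 5.96% and 8.28% of the well-covered ones. The genes of CREB signalling past 1.5-fold were the coactivator genes CREBBP with 4319 and 4001 reads (0.65, 0.59 to 0.71), CRTC1 with 1988 and 1802 (0.62, 0.52 to 0.71) and CRTC2 with 306 and 294 (0.70, 0.47 to 0.94).

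MEF2D, a neuronal activity-controlled factor that calcineurin dephosphorylates, had 4237 and 3806 reads (0.60, 0.54 to 0.67). NFATC1, a calcineurin-dependent factor, was lower with 109 and 36 reads (-0.81, -1.43 to -0.28), and the other lower gene was HDAC5, a repressor of MEF2 factors, with 3388 and 1575 reads (-0.35, -0.43 to -0.26). KCNIP3, a calcium-binding repressor, had 3011 and 2657 reads (0.58, 0.50 to 0.65). The factor genes with the most reads were MEF2C, with 27243 and 16702 reads (0.05, 0.03 to 0.08), and CAMTA2, with 5457 and 4244 (0.40, 0.34 to 0.45). CREB1 itself had 301 and 234 reads (0.39, 0.14 to 0.65). CREB1 and HDAC5 were named here after their values were seen.

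Of the 7 listed genes known to respond to calcium signalling, 1 was higher and 5 lower beyond counting error, beside 28.4% and 28.1% of all tested genes and 34.8% and 44.3% of the well-covered ones. Their median log2 ratio was -0.69. At 2-fold 1 was lower, beside 5.47% of all tested genes and 1.92% of the well-covered ones. It was BDNF, the gene of a neurotrophin under CREB control, with 732 and 89 reads (-2.26, -2.62 to -1.96), too few to be among the well-covered genes. ITPR1, the calcium release channel of the endoplasmic reticulum, had 7641 and 2578 reads (-0.81, -0.87 to -0.74), and VGF, a neuropeptide precursor, had 2790 and 1020 reads (-0.69, -0.80 to -0.59). RCAN1 and NFATC1 stand in this list as well as in those above.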

How the data were processed

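RNA sequencing read counts per gene were analysed for 2 libraries of rhesus macaque prefrontal cortex, 1 control and 1 sevoflurane, grouped by sample title. The authors deposited raw whole-number counts, not normalized, with 1 column per library. HISAT2 2.0.4 is named in the submitters' processing notes, and the counting tool, build, annotation and strand setting were not given in the sources used here. An unknown annotation or strand setting could change counts of overlapping genes.

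Library totals were 16960880 and 9839105 reads. TMM factors (0.991 and 1.01; edgeR 4.0.16, R 4.3.3) came from the genes reaching 1 CPM in 1 or both libraries, and log2 ratios used a prior count of 2. The 95% intervals are exact (Clopper-Pearson for ratios and shares, conditional for odds ratios, Poisson for CPM; scipy 1.17.1) and cover counting error only. A gene was called at 2-fold when its interval also excluded equal expression. Python 3.11.15, numpy 2.4.6, pandas 2.3.3 and matplotlib 3.10.9 were used. The procedure was tested on simulated counts with counting error only, which cannot show how it performs with differences between animals. With 1 library per group no test across genes could be fitted.

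The members and lists were chosen with earlier results of these data known. Beyond the members, genes were named when their log2 ratio, rounded, was at least 0.58 in size with an interval excluding equal expression, or when they had the 2 highest read sums of a pathway list. 1 item of a pathway list is not reported here and was left out of that list. Likeness of pattern between genes cannot be measured over 2 libraries. The members' symbols were all found in the RefSeq table, used for overlaps only. As alternatives, scaling used DESeq2 1.42.0 size factors, library totals, upper quartile or marker-based references, and others were another prior count, other filters, thresholds and intervals, and the control library sampled down.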

Additional observations from a re-analysis of the deposited data

How the results depend on the processing

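The log2 ratios of the members kept their direction under DESeq2 size factors, library totals, upper-quartile scaling, a prior count of 0.5, filters of 1 read and 5 CPM and the control library sampled down, except that CAMKK1, at 0.01 with an interval including equal expression, ranged from -0.01 to 0.04. In these settings 1 value left its counting interval, CAMK2A with library totals (0.34). With the excitatory neuron markers as reference the ratios were 0.07 for CAMK2A, -0.46 for CAMK2B, -1.30 for CAMK2D, -0.24 for CAMKK1, 0.22 for PPP3CA, -0.54 for PPP3CB and -0.41 for PPP3R1, and the direction turned for CAMK2G (-0.12), CAMK4 (-0.04) and CAMKK2 (-0.15). With the pan-neuron markers they were 0.68 for CAMK2A, -0.70 for CAMK2D, 0.49 for CAMK2G, 0.57 for CAMK4, 0.37 for CAMKK1, 0.46 for CAMKK2 and 0.83 for PPP3CA, and the direction turned for CAMK2B (0.15), PPP3CB (0.07) and PPP3R1 (0.19). These references shift all genes by -0.24 and 0.36 by construction. Each is the median of markers that differ among themselves, from -2.69 to 1.73 (excitatory) and from -0.56 to 0.83 (pan-neuron). The medians of the 13 lists stayed within the counting error of their genes in the settings other than the marker references, which were run for the members only, and so did the shares within families with the control sampled down. The counts of genes called higher and lower were 606 and 474 at a minimum of 5 CPM, where fewer genes are tested, 2604 and 2141 at 1.5-fold, 352 and 221 at 4-fold and 5132 and 5065 with no fold threshold, as their construction requires. The order of levels was not computed in any setting, because transcript lengths were not at hand. No paired analysis was possible because only replicate 1 of either group is present, and for the same reason no replicate could be left out. The depth of the sevoflurane library limits genes with few reads, such as CAMK1G and PPP3CC, more than the members.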
